A study of Mus musculus with 2 samples.

Results

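The 7 genes described here, Hmgcs1, Idi1, Fdps, Fdft1, Sqle, Cyp51 and Insig1, belong to cholesterol synthesis and its control. They were taken by symbol from the 33696 gene identifiers of the deposited matrices, and all 7 were found, each with 1 identifier. Their transcripts were counted in single cells of embryoid bodies, the aggregates in which embryonic stem cells begin to differentiate. The starting cells were of the male mouse line J1, and the bodies had been kept for 2 days with the solvent DMSO or with dTAG13. dTAG13 is a small molecule that directs proteins carrying an FKBP-derived tag to degradation. The tagged protein and the clone are not stated in the labels, and the series title names Tex10, a subunit of a ribosome maturation complex. There was 1 library per treatment, so every difference is between these libraries, has no replicate check and carries no test. All intervals are 95% intervals and cover counting error only.

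Cells make cholesterol from acetyl-CoA through mevalonate, isoprenoid diphosphates, squalene and lanosterol. Most genes of the route are switched on together by SREBP transcription factors, which are held in the endoplasmic reticulum by Insig proteins when sterols are plentiful and released when sterols run low. Proliferating cells such as embryonic stem cells draw on the route for membranes and for the isoprenoid anchors of small GTPases.

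After filtering, 17878 DMSO cells (117189816 UMIs, distinct tagged transcripts) and 11588 dTAG13 cells (91808969 UMIs) remained, with medians of 6014 and 7072.5 UMIs per cell. The libraries shared 63 cell barcodes, which is 0.352% of DMSO and 0.544% of dTAG13 cells. All 12 pluripotency markers were measured, at a summed 10369 and 9232 counts scaled to equal library totals (CPM) with DMSO and dTAG13. Dppa5a alone gave 7262 and 6581 CPM of these sums. By the limit given below, 3 of the 12 (25%) were called lower with dTAG13 and 0 called higher. The 3 were Zfp42, Esrrb and L1td1, at ratios of 0.656, 0.693 and 0.714 as dTAG13 over DMSO. Of 10 fibroblast and 10 mesoderm markers, 8 each were under 1 CPM in both libraries, and the fibroblast genes Col3a1, Lum and Postn had 0 UMIs. The fibroblast list as a whole summed to 34.9 and 88.3 CPM. Of that sum Tagln gave 27.6 and 85.7 CPM, while Acta2 went from 6.40 to 1.83 CPM. Summed trophoblast markers were at 209 and 215 CPM, but 5 of the 7 measured were called higher with dTAG13 by the limit given below (Krt8 2.64, Krt18 2.62 as dTAG13 over DMSO) and 2 called lower (Rhox6 0.248, Rhox9 0.236). Krt7 (1.54 and 8.19 CPM) and Ascl2 (0.777 and 5.93 CPM) count as measured only through the dTAG13 library. Among those below 5 CPM in both libraries, Elf5 and Tead4 had ratios of 0.116 and 0.751, and Cdx2, Gata3 and Hand1 had ratios above 1. Extraembryonic endoderm markers summed to 189 and 272 CPM, with 3 of 3 measured called higher. Sparc alone gave 158 and 230 CPM of these sums. Col4a1 (4.78 and 6.05 CPM) counts as measured only through the dTAG13 library. Below 5 CPM in both libraries, Lama1, Dab2 and Sox7 had ratios of 0.454, 0.720 and 0.365, and the others had ratios above 1. Of the 12 listed, 7 were under 1 CPM in both libraries. Neural ectoderm markers summed to 71.6 and 112 CPM, with 3 of 4 measured called higher and Tubb3 called lower (0.712). In that list Neurod1 alone went from 3.49 to 44.5 CPM, and it counts as measured only through the dTAG13 library, where it is high. Pax6 stayed below 5 CPM in both libraries, at a ratio of 0.249, and 3 others were under 1 CPM. Of all measured genes, 28.2% were called higher and 13.8% lower. The part of these markers in the results below was not tested.

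Promoter sequence was available for 4 of the 7 genes and is shown because these genes share a known regulator yet did not all differ in the same direction. Each sequence is the 250 bases before the annotated transcription start, 5′ to 3′ on the gene's strand, from RefSeq on GRCm38.p6. Capitals mark matches, on either strand, to TCACCCCAC (a sterol regulatory element), the CCAAT box (CCAAT), the GC box (GGGCGG) or the E-box (CACGTG), where neighbouring matches may join. The windows are chr13:119690101-119690350 on the plus strand for Hmgcs1, chr13:8885356-8885605 on the plus strand for Idi1, chr5:4104698-4104947 on the minus strand for Cyp51 and chr5:28071162-28071411 on the plus strand for Insig1.
Hmgcs1: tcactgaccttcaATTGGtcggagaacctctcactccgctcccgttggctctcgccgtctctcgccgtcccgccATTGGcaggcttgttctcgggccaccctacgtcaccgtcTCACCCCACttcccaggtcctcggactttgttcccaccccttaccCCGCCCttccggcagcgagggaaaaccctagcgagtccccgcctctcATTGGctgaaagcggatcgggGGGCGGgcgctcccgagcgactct
Idi1: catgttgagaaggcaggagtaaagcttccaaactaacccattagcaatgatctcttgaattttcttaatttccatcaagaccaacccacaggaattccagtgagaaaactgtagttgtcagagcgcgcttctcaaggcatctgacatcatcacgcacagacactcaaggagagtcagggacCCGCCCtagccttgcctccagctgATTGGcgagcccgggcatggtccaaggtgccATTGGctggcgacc
Cyp51: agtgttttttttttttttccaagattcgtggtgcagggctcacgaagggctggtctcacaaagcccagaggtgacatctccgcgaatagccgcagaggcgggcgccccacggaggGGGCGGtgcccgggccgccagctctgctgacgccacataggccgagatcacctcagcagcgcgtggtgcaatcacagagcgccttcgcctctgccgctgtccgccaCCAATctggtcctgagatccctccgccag
Insig1: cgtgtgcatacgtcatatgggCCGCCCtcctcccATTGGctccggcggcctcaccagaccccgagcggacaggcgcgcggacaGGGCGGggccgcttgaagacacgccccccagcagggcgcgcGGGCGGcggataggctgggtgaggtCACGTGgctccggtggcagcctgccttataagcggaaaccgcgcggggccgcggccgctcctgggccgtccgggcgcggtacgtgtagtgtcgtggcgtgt

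The Hmgcs1 window held the element TCACCCCAC, with its first base 137 bases before the start, as did 0.496% of 32851 promoter windows of this length. Neither this element nor its relaxed form TCACNCCAC, found in 1.05% of all windows, matched in the other 3 windows, which says only that these letters are not there. Of 15 sterol synthesis enzymes with a promoter entry, only 1, Hmgcs1, matched the relaxed form, and Sqle had no entry. Any part of the element in the direction of the ratios was not tested. All 4 windows held a CCAAT box (33.8% of all windows) and a GC box (32.7% of all windows), and the Insig1 window also held an E-box (6.02% of all windows).

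Between the libraries the 7 genes split. Fdps, Idi1, Cyp51 and Insig1 were lower in the dTAG13 library, Hmgcs1 and Sqle were higher, and Fdft1 was level within counting error. A gene is called lower below where its ratio was 0.8 or less, and called higher where the inverse of its ratio was 0.8 or less. This limit was set with earlier ratios of some of the 7 genes known, so counts of called members are a description only. Of the 7 genes, 4 were called lower and 0 called higher, while 13.8% and 28.2% of the 8817 measured genes were. Measured means that a gene reached 5 CPM in either library. The median log2 ratio of the 7 was -0.35, against 0.09 over all 8817 genes. That median is the value of Cyp51. Without Idi1, Fdps or Insig1 it was -0.20, so it depends on which genes of a split set are counted. At 1.5-fold, 0 of the 7 passed in either direction, against 5.4% of all genes lower and 14.2% higher.

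At the head of the route, Hmgcs1 (ENSMUSG00000093930), the cytosolic synthase that makes HMG-CoA, was at 63.2 CPM in the DMSO and 73.2 CPM in the dTAG13 library. These levels rest on 7407 and 6722 UMIs and give a ratio of 1.16 (1.12 to 1.20). Hmgcs1 was thus slightly higher with dTAG13, at percentile 62.1 of the ratios of all measured genes, close to the middle of that distribution.

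The isoprenoid steps went the other way. Idi1 (ENSMUSG00000058258), which interconverts the isoprenoid building blocks, was at 98.2 CPM in the DMSO and 74.1 CPM in the dTAG13 library (ratio 0.755, interval 0.732 to 0.778). Fdps (ENSMUSG00000059743), which joins them into farnesyl diphosphate for sterols and for protein prenylation, was at 194 CPM in the DMSO and 137 CPM in the dTAG13 library. Its 22685 and 12599 UMIs gave a ratio of 0.709 (0.694 to 0.725), the lowest of the 7, at percentile 7.54 of all measured genes.

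Just past the branch point, for Fdft1 and Sqle, the ratios returned towards 1 or above it. Fdft1 (ENSMUSG00000021273), the squalene synthase that commits farnesyl diphosphate to sterols, was at 46.5 CPM in the DMSO and 45.3 CPM in the dTAG13 library (ratio 0.973, interval 0.934 to 1.01). Sqle (ENSMUSG00000022351), the squalene epoxidase, was at 22.9 CPM in the DMSO and 25.7 CPM in the dTAG13 library (ratio 1.12, interval 1.06 to 1.19). Cyp51 (ENSMUSG00000001467), the demethylase of lanosterol, was lower again, at 39.1 CPM in the DMSO and 30.6 CPM in the dTAG13 library (ratio 0.782, interval 0.746 to 0.820).

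Insig1 (ENSMUSG00000045294) is both a brake on SREBP processing and one of its targets. It was at 8.52 CPM in the DMSO and 6.33 CPM in the dTAG13 library (998 and 581 UMIs), a ratio of 0.743 (0.670 to 0.824). The direction of each of the 7 ratios was the same under all 9 alternative filters, scalings and weightings listed with the processing.

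**Figure D1:**
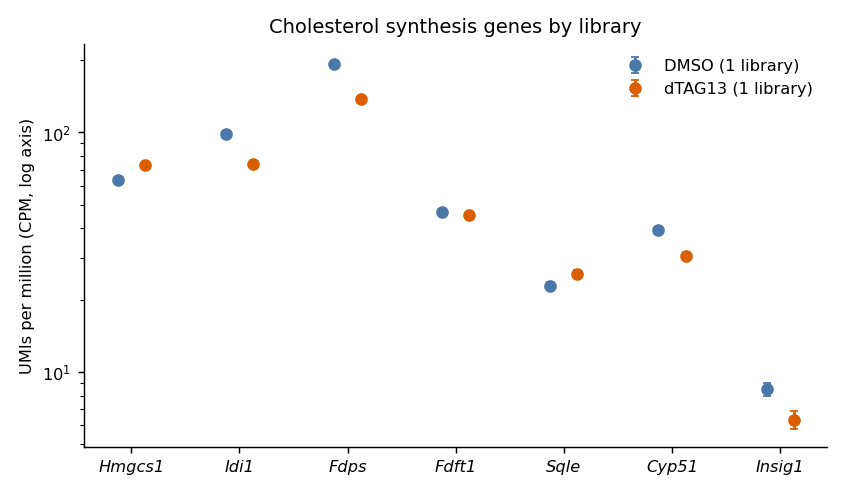
Level of each of the 7 genes (CPM, log axis) in the DMSO and dTAG13 libraries, 1 point per library, with exact Poisson 95% intervals that are mostly smaller than the points. Fdps, Idi1, Cyp51 and Insig1 lie lower with dTAG13, Hmgcs1 and Sqle slightly higher, and Fdft1 level.

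The rest of the route was read from a list of 20 sterol synthesis enzymes that includes 6 of the 7 genes. Of 19 measured enzymes, 14 had a ratio below 1 (39.7% of all measured genes did), 5 were called lower (26.3%, against 13.8% of all measured genes) and 2 called higher (10.5%, against 28.2%). Outside the 7 genes, 2 of 13 measured enzymes were called lower (15.4%), a share near that of all measured genes. The list's median log2 ratio was -0.10. The lowest ratios lay outside the 7 genes. Ebp, an X-linked sterol isomerase of the late route, was at 48.4 CPM in the DMSO and 26.0 CPM in the dTAG13 library (ratio 0.537, interval 0.511 to 0.563). Tm7sf2, a sterol reductase, was at 8.98 CPM in the DMSO and 5.29 CPM in the dTAG13 library. Both were past 1.5-fold.

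The kinase Mvk and the decarboxylase Mvd, which carry mevalonate on to isoprenoids, had ratios of 0.818 and 0.844. The enzymes called higher were Acat2, which condenses acetyl-CoA, at a ratio of 1.27, and the lanosterol synthase Lss, at 1.29 with about 5 to 7 CPM. Msmo1, Sc5d and Hsd17b7 lay between 0.948 and 0.970. Enzymes of consecutive steps therefore differed in direction, as in the pathway-ordered plot.

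**Figure D2:**
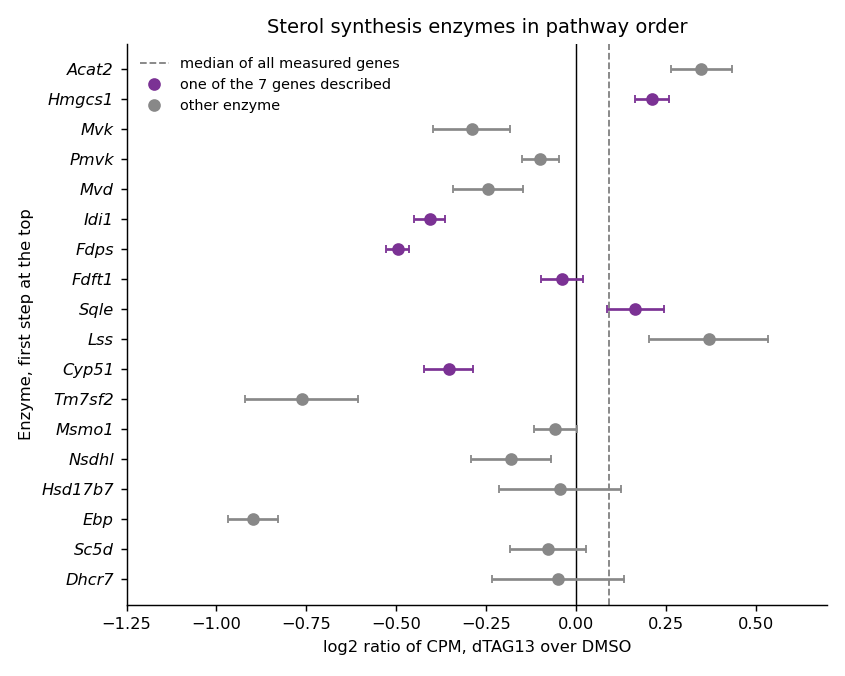
Log2 ratio of CPM (dTAG13 over DMSO) of 18 sterol synthesis enzymes in approximate pathway order, 1 point per gene with its exact conditional 95% counting interval; the dashed line is the median of all measured genes, 0.09. Ebp and Tm7sf2 lie farthest left, followed by Fdps and Idi1, while Acat2, Hmgcs1, Sqle and Lss lie right of 0.

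Of 12 measured genes that sense and import sterols, 3 were called lower (25%, against 13.8% of all measured genes) and 4 called higher (33.3%, near the 28.2% of all measured genes). Npc1, a gene for cholesterol export from the lysosome, had a ratio of 0.713. Insig2, the second Insig gene, was at 8.10 CPM in the DMSO and 14.3 CPM in the dTAG13 library (ratio 1.77, interval 1.62 to 1.92), opposite to Insig1. Scap, the escort of SREBP proteins, was at 4.56 CPM in the DMSO and 8.71 CPM in the dTAG13 library (ratio 1.91). It counts as measured only through the dTAG13 library, where it is high, as does another of the genes called higher. The SREBP gene Srebf2 was at 31.3 CPM in the DMSO and 28.8 CPM in the dTAG13 library.

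Neighbouring lipid routes were read from further lists. Of 10 measured fatty acid synthesis genes, 1, the desaturase gene Scd1, was called lower, with a ratio of 0.674, and 0 were called higher. Fasn, the fatty acid synthase, had a ratio of 0.988. Of 13 genes of other isoprenoid branches, 1 was called lower, the prenylcysteine methyltransferase gene Icmt at 0.671, and 3 were called higher, among them Fnta, the shared alpha subunit of the farnesyl and geranylgeranyl transferases, at 1.42. In both lists these shares, 10.0% and 7.69% called lower and 0% and 23.1% called higher, lay below the 13.8% and 28.2% of all measured genes. Of the efflux and storage list only Nr1h2, Apoe and Soat1 were measured, at ratios of 0.902, 1.04 and 1.47. The efflux pump gene Abca1, a target of sterol-sensing nuclear receptors, stayed below 5 CPM in both libraries.

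Per cell, the transcripts were sparse, and the depth of the libraries differed, so cells were also drawn down to 3900 UMIs each, which left 16123 DMSO and 10815 dTAG13 cells and dropped 1755 and 773 shallower ones. At this depth a cell held on average 1.83 UMIs of the 7 genes with DMSO and 1.52 with dTAG13, a ratio of 0.829, with medians of 2 and 1. No UMI of any of the 7 was found in 21.7% of DMSO and 27.1% of dTAG13 cells. Without thinning the means were 3.09 and 3.11, so the deeper dTAG13 cells held the same number of UMIs from a larger total.

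A Fdps UMI was found in 48.9% (48.1 to 49.7) of thinned DMSO cells and 37.8% (36.9 to 38.7) of thinned dTAG13 cells, or 63.0% and 55.3% of all kept cells. For Idi1 the thinned shares were 29.9% and 23.8%, and for Cyp51 13.4% and 10.5%. Hmgcs1 went from 20.8% (20.2 to 21.4) to 23.7% (22.9 to 24.5) of thinned cells, and Sqle from 8.37% to 9.59%. Insig1 was found in only 3.08% and 2.31% of them. All cells are thought to run this route, so no cell type that lacks these genes was at hand and a background share from free RNA could not be set beside these shares.

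At 3900 UMIs per cell, Pearson's r of log counts between pairs of the 7 ran from 0.01 to 0.09 in both libraries, which in counts this sparse is no finding by itself. In the order of 4327 genes by their r with the summed 7 genes (own gene left out, the lower value of the libraries), all 6 of the 7 that reach 20 CPM in both libraries and 10 of 11 such enzymes ranked among the top 100. The 10 genes outside the 7 with the highest values included Msmo1, Ccne1, Hsp90b1, Pmvk, Hspd1, Pclaf, Hspa5, Hmgb1 and Tuba1a. Msmo1, a sterol demethylase component, had r of 0.12 with DMSO and 0.11 with dTAG13, where the median gene had 0.005 and 0.004. Ccne1, Pclaf and Hmgb1 are genes of dividing cells, and Hspa5 and Hsp90b1 are endoplasmic reticulum chaperones. The cells of 1 library share its preparation, so these values describe the libraries.

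Levels also differed by cell cycle phase. Within both libraries the summed 7 genes were highest in cells called S, at 524 CPM in the DMSO and 455 CPM in the dTAG13 library, and were at 458 and 383 CPM in cells called G2 and M. In cells called G1 they were at 367 CPM (327 to 410) and 378 CPM (367 to 390.0), so the summed ratio was 1.03 (0.919 to 1.16) in G1, against 0.868 in S and 0.836 in G2 and M. Fdps kept a ratio below 1 in each phase, namely 0.737 in cells called G1, 0.777 in S cells and 0.717 in G2 and M cells. Idi1 was at 0.830 in S and 0.775 in G2 and M. In G1, which held 214 DMSO and 1943 dTAG13 cells, Idi1 was at 1.12 (0.829 to 1.55) and Hmgcs1 at 1.77 (1.30 to 2.48). The shares of cells differed too, with S called for 25.2% of DMSO and 14.9% of dTAG13 cells.

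Lower levels of Fdps, Idi1, Cyp51 and Insig1 were also found between groups of clusters within each library. The cells of both libraries were clustered together without the genes of the lipid lists. The clusters fell into 6 made up mainly of DMSO cells and 4 mainly of dTAG13 cells, with the 4 smallest left out. The minority cells in each group made it possible to set the libraries side by side within like clusters. The 6 DMSO clusters held 16940 DMSO and 1006 dTAG13 cells, and the 4 dTAG13 clusters held 620 DMSO and 10457 dTAG13 cells. These groups were made after the clusters were seen. Their make-up differed between the libraries: cluster 6 held 2042 of the 16940 DMSO but 389 of the 1006 dTAG13 cells, and cluster 8 held 17 of the 620 DMSO but 2070 of the 10457 dTAG13 cells.

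DMSO cells in the dTAG13 clusters had low levels of Fdps, Idi1, Cyp51 and Insig1, the members called lower in the dTAG13 library. Summed over the 7 genes they were at 348 CPM, against 476 CPM for the DMSO cells of the DMSO clusters, a ratio of 0.732 (0.692 to 0.774) within 1 library. Fdps was at 124 against 196 CPM, Idi1 at 65.9 against 99.5 CPM, Cyp51 at 25.1 against 39.2 CPM and Insig1 at 4.69 against 8.65 CPM. Hmgcs1, at 63.9 against 63.1 CPM, and Fdft1, at 46.0 against 46.4 CPM, were level. Sqle was at 18.7 against 23.0 CPM, a ratio of 0.813 (0.630 to 1.03), on the other side of 1 from its ratio between the libraries. Of the 7 genes, 4 were called lower in this contrast, as were 10 of 19 enzymes, where 9.46% of all measured genes were.

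dTAG13 cells in the DMSO clusters had levels like those of DMSO cells or above them. Their summed 7 genes were at 571 CPM, against 374 CPM for the dTAG13 cells of the dTAG13 clusters. Within this library Fdps was at 226 CPM in the DMSO clusters and 128 CPM in the dTAG13 clusters, Idi1 at 107 and 71.0 CPM, and Cyp51 at 48.8 and 28.5 CPM. Here 6 of the 7 genes and 14 of 19 enzymes were called lower in the dTAG13 clusters, against 13.2% of all measured genes. Hmgcs1, at 91.0 and 71.4 CPM, and Fdft1, at 58.7 and 43.9 CPM, were among them, unlike in the DMSO library.

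Between the libraries but inside like clusters, the lower levels were not seen. In the DMSO clusters the summed 7 genes had a ratio of 1.20 (1.16 to 1.24) and 0 of the 7 had a ratio below 1. Of all 8817 measured genes, 2996 had a ratio below 1 in this contrast. The median log2 ratio was 0.11 over all measured genes and 0.32 over the 7. Fdps was at 1.16 (1.10 to 1.21), Hmgcs1 at 1.44 (1.34 to 1.55) and Sqle at 1.31. Called higher were 3 of the 7 genes and 7 of 19 enzymes, against 21.6% of all measured genes. In the dTAG13 clusters the summed ratio was 1.07 (1.02 to 1.14), with Fdps at 1.03 (0.941 to 1.14) and Idi1 at 1.08 (0.947 to 1.23), and 2 of the 7 were called higher, against 18.5% of all measured genes. Ebp was lower with dTAG13 in both groups of clusters, at ratios of 0.745 (0.662 to 0.837) and 0.784 (0.650 to 0.955). Insig2 was higher with dTAG13 in both, at 1.74 and 1.53.

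**Figure D3:**
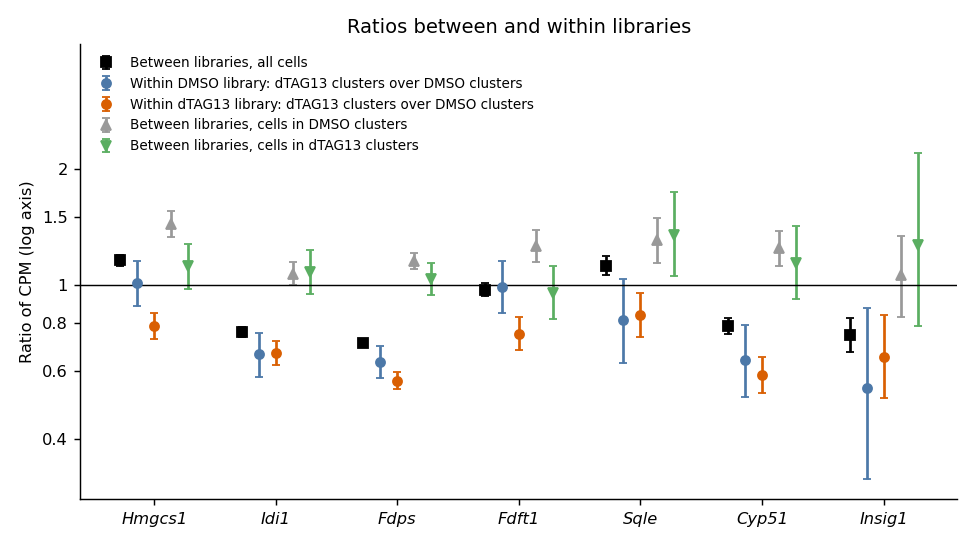
Ratio of CPM (log axis) of each of the 7 genes, with 95% counting intervals, for dTAG13 over DMSO in all cells (black squares), for cells of 1 library in the 4 dTAG13 clusters over its cells in the 6 DMSO clusters (blue and orange circles), and for dTAG13 over DMSO inside each group of clusters (triangles). Fdps, Idi1, Cyp51 and Insig1 lie below 1 within each library, and between libraries they lie at or above 1 once cells come from like clusters.

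Other measures also differed between these groups of cells. Only the genes of the lipid lists were left out of the clustering, so the genes named below could help form the groups. Summed over 18 p53 targets, genes switched on by p53 after damage or ribosome faults, DMSO cells were at 443 CPM in the DMSO clusters and 1219 CPM in the dTAG13 clusters, and dTAG13 cells at 1054 and 2058 CPM. A list of S phase genes summed to 4931 and 4524 CPM in DMSO cells and to 5107 and 3804 CPM in dTAG13 cells of these clusters. G1 was called for 0.779% and 10.6% of these DMSO cells and for 1.29% and 18.3% of these dTAG13 cells. S was called for 25.1% and 28.1% of these DMSO cells and for 30.9% and 13.4% of these dTAG13 cells. Krt8 and Krt18 together were at 15.9 and 21.5 CPM in DMSO cells and at 27.7 and 62.8 CPM in dTAG13 cells. Median UMIs per cell were 6048.5 and 5281.5 in DMSO cells and 7381 and 7046 in dTAG13 cells. Of the 63 shared barcodes, 2 were among the 620 DMSO cells and 6 among the 1006 dTAG13 cells. The part of these measures, and of doublets, in the result was not tested.

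Cluster by cluster the picture was alike. Both libraries gave at least 200 cells to 3 clusters, where the summed ratio was 1.03 (0.945 to 1.13) in cluster 2, led by replication histone genes, 1.11 in cluster 7, led by Phlda1 and Ccn1, and 1.20 (1.15 to 1.26) in cluster 6, led by Ebf1 and Grb10. Both gave at least 50 cells to 10 clusters, of which 1 had a ratio below 1, cluster 3 at 0.977 (0.897 to 1.06). Outside these 10, cluster 8, led by Krt19 and with 17 DMSO cells, was at 0.757 (0.594 to 0.980), and cluster 11, with 34 dTAG13 cells, at 0.691 (0.540 to 0.875). Within the DMSO library, cluster 9, led by Nanos3 and Ptch1, stood apart from the other 5 DMSO clusters: its 757 cells were at 335 CPM, against 443 to 538 CPM, with p53 targets at 801 CPM, against 366 to 501 CPM. Other clusters went the other way. Among dTAG13 cells of the 4 dTAG13 clusters, cluster 8 had both the highest p53 target sum, 2749 CPM against 1881 to 1900.5 CPM, and the highest sum of the 7 genes, 401 CPM against 364 to 371 CPM. Among dTAG13 cells of the DMSO clusters, cluster 6 was at 647 CPM of the 7 genes with p53 targets at 1220 CPM, and cluster 0 at 584 CPM with p53 targets at 829 CPM.

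**Figure D4:**
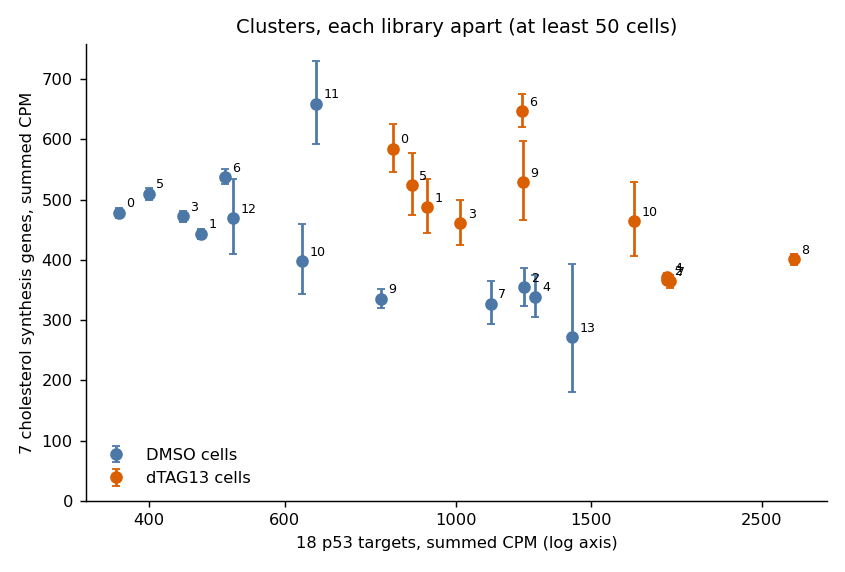
Summed CPM of the 7 genes (vertical axis, with 95% Poisson intervals) against summed CPM of 18 p53 targets (horizontal log axis), 1 point per cluster and library with at least 50 cells, numbered by cluster. DMSO cells of clusters 2, 4, 7 and 9 lie between 327 and 354 CPM, and dTAG13 cells of clusters 0, 1, 3, 5 and 6 lie between 461 and 647 CPM.

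Cells were then placed in 4 bins by their own p53 target UMIs at 3900 UMIs per cell, with the same limits in both libraries (0 to 1, 2 to 3, 4 to 7, and 8 or more). The DMSO library held 8584 cells in the lowest and 230 in the highest bin, and the dTAG13 library 304 and 5251. In DMSO cells the mean of the 7 genes went from 1.90 UMIs in the lowest bin to 1.83, 1.61 and 1.37 UMIs in the next ones. In dTAG13 cells it went from 1.93 to 1.76, 1.55 and 1.41 UMIs. Bin by bin, the ratio of dTAG13 to DMSO was 1.02 (0.934 to 1.10), 0.966 (0.920 to 1.01), 0.967 (0.928 to 1.01) and 1.03 (0.922 to 1.16), against 0.829 over all thinned cells.

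Fdps went down with the bins in both libraries, from 0.811 to 0.530 UMIs in DMSO cells and from 0.796 to 0.443 UMIs in dTAG13 cells. The ratio of the highest to the lowest bin was 0.654 (0.542 to 0.782) with DMSO and 0.556 (0.487 to 0.638) with dTAG13, where the median of all measured genes was 1.06 and 1.03. Idi1 had ratios of 0.734 and 0.789 in this contrast. Cyp51 was at 0.565 (0.344 to 0.876) with DMSO and 0.868 (0.633 to 1.22) with dTAG13. Hmgcs1 and Fdft1 did not differ beyond counting error between these bins in either library. Called lower in the highest bin were 4 of the 7 genes in each library. Among all measured genes, 17.8% were called lower with DMSO and 17.6% with dTAG13. The 4 were not the same genes in both. Fdps, Idi1 and Insig1 were called in each library, Cyp51 with DMSO only and Sqle with dTAG13 only. Insig1 rested on 5 UMIs in the highest DMSO bin and 11 UMIs in the lowest dTAG13 bin. Its interval reached past 1 in each library.

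Sqle also went down with the bins in dTAG13 cells, from 0.148 to 0.0937 UMIs, a ratio of 0.633 (0.466 to 0.879), while in DMSO cells its ratio was 0.8001 (0.464 to 1.29). Between the libraries, Sqle and Hmgcs1 were higher with dTAG13 in each of the 4 bins. For Sqle the ratios were 1.60 (1.16 to 2.16), 1.34 (1.09 to 1.63), 1.24 (1.04 to 1.47) and 1.27 (0.784 to 2.19) from the lowest to the highest bin, and for Hmgcs1 they were 1.27, 1.14, 1.10 and 1.37. Idi1 stayed below 1 in all 4, between 0.799 and 0.939, as did Fdps, between 0.835 and 0.981, though for each gene the interval reached past 1 in 3 of the 4 bins.

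The S phase genes Pcna and Gmnn, chosen to describe the bins, also had lower means in the highest bin, at ratios of 0.855 and 0.871 with DMSO and 0.534 and 0.618 with dTAG13. Among cells called G2 and M alone, the highest over the lowest bin gave 0.689 (0.595 to 0.794) with DMSO and 0.709 (0.642 to 0.784) with dTAG13 for the summed 7 genes. Bins come from few UMIs per cell, and within the highest bin dTAG13 cells reached 34 p53 target UMIs and DMSO cells 15.

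**Figure D5:**
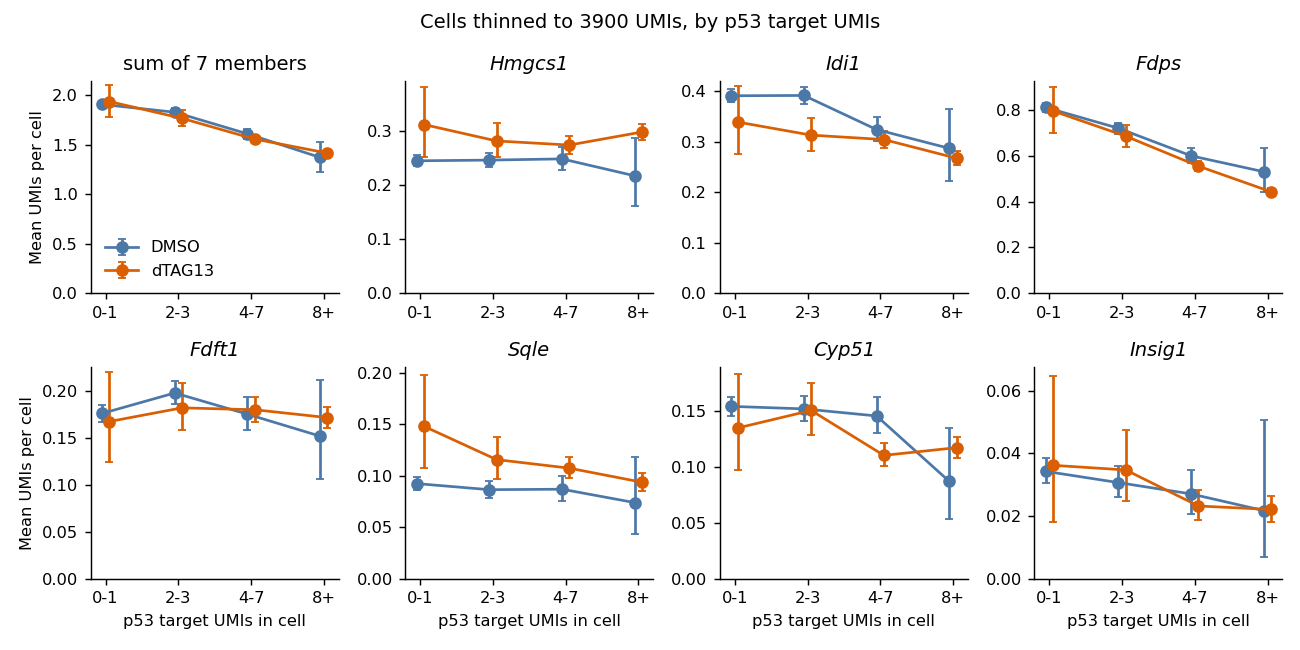
Mean UMIs per cell (cells thinned to 3900 UMIs) of the summed 7 genes and of each gene, by p53 target UMIs in the cell, for DMSO (blue) and dTAG13 (orange) cells, with 95% Poisson intervals on the means. The summed and Fdps curves of both libraries slope down side by side, while Sqle and Hmgcs1 lie higher with dTAG13 in every bin.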

How the data were processed

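Single-cell RNA libraries were made with a 10x Chromium 3′ kit, per the labels' protocols, from 1 DMSO and 1 dTAG13 sample. What the authors deposited are UMI counts for each gene and barcode, and the file headers name Cell Ranger 8.0.1. The submitters' processing notes name the build mm10. The annotation and barcode filter are not given in the sources used here.

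A cell was kept if 500 or more genes were detected and mitochondrial UMIs made up no more than 10%. No doublets were removed. Identifiers that share a symbol were summed. UMIs were summed over cells and scaled to CPM. Ratios are dTAG13 over DMSO. Intervals are exact (Poisson for counts, conditional binomial for ratios, Clopper-Pearson for shares) and cover counting error only. A gene was measured if it reached 5 CPM in either library. A 3′ UMI count does not scale with transcript length. Phases came from scanpy 1.11.5 scores. Clusters (1994 variable genes, 30 principal components, 15 neighbours, leidenalg 0.10.2, resolution 1) were made without integration. Ratio and thinning code was tested on simulated data.

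The members, the lists and the limit for calling a gene lower or higher were chosen with earlier results of these data known. Named genes are the 7, genes of the lipid lists, and the 10 genes closest to the 7 in correlation. Some genes of these lists count in the totals but are not reported here by name. Alternatives to the ratios were at least 1000 genes, a mitochondrial limit of 5%, median of ratios scaling, totals without mitochondrial and ribosomal protein genes, leaving out the 5% of cells with most UMIs, thinning, equal weight per cell, G2 and M cells alone and, chosen after seeing the data, leaving out shared barcodes.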

Additional observations from a re-analysis of the deposited data

How the results depend on the processing

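Over 9 alternatives, 57 of 63 ratios of single members stayed within the counting interval of the reported ratio and 0 changed sign. The median log2 ratio of the 7 genes was -0.43 under median of ratios scaling and otherwise between -0.36 and -0.33. Leaving out 1 gene at a time it ran from -0.38 to -0.20. The count of enzymes called lower, 5, was between 4 and 7 under the other settings and 2 at 1.5-fold. The ratio of mean member UMIs per cell, 0.829 at 3900 UMIs, was 0.850 at 2000 UMIs and 1.005 without thinning, where cells differ in depth. Summed ratios below 1 were found in 0 of the 3 clusters to which both libraries gave at least 200 cells and in 1 of 10 with at least 50. The p53 bin contrasts stayed within their intervals without Sesn1 and Rrm2b in the list (0.762 with DMSO and 0.727 with dTAG13) and in G2 and M cells, all chosen after seeing the data. Insig1, with 998 and 581 UMIs in all, is limited by depth within clusters and bins. No paired analysis was possible because each treatment has 1 library.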

Other observations

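Small clusters that entered neither group differed in single members. Cluster 12, with 82 DMSO cells and led by the stress genes Chac1, Nupr1 and Herpud1, had Cyp51 at 76.7 CPM (54.0 to 106) and Idi1 at 53.9 CPM (35.2 to 79.0), against 39.1 and 98.2 CPM over the DMSO library. Its Fdps was at 224 CPM (184 to 270.3). Cluster 11, led by Plac1 and Pmp22, had the highest summed level of the 7 genes among DMSO clusters of at least 50 cells, at 659 CPM (592 to 731) over 104 cells. Its 34 dTAG13 cells were at 455 CPM (364 to 561). Cluster 13, with 57 DMSO cells, had the lowest, at 272 CPM (180.5 to 393), from 28 UMIs. Inside cluster 9, the 66 dTAG13 cells were at 528 CPM and the 757 DMSO cells at 335 CPM, a ratio of 1.58 (1.38 to 1.80).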
